A study of Mus musculus with 14 samples.

Results

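The glycolysis and hypoxia-response module is a list of 37 genes that encode glucose and lactate transporters, glycolytic enzymes and targets of the hypoxia-inducible factor (HIF). Its members were chosen by name, with earlier results of these data known, and matched by NCBI Gene number. All 37 were found among the 27179 genes counted. They fall into 6 roles, with 2 glucose transporters, 14 glycolytic enzymes, 3 regulators of glycolytic flux, 3 genes of lactate production and export, 3 genes for HIF and its oxygen sensors, and 12 other HIF targets. They were read in regulatory T cells (Tregs), a CD4 lineage that restrains other lymphocytes and is defined by the transcription factor Foxp3. The mice had been given MC38 colon carcinoma cells in the flank, and samples were collected at endpoint. Tregs were isolated from spleen or tumor and sorted by a yellow fluorescent protein (YFP) made together with a Cre recombinase under Foxp3 control. Strain B6.IL23RWT FoxP3Cre-YFP gave 4 libraries per tissue, labelled WT. Strain B6.IL23RFlox FoxP3Cre-YFP, homozygous for Il23r alleles that Cre can delete, gave 3 libraries per tissue, labelled Flox. All 4 groups thus carried the Foxp3-driven Cre and a tumor, and the spleens are those of tumor-bearing mice. Il23r encodes a subunit of the receptor for the cytokine IL-23, and the comparison the series states is Flox against WT within a tissue. Ages of the mice, and whether libraries of a group came from separate mice, are not stated in the labels. The p-values therefore speak of variation among these libraries alone, which may be technical.

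Glycolysis splits glucose into pyruvate in the cytosol, and lactate dehydrogenase turns pyruvate into lactate, which leaves the cell through monocarboxylate transporters. In low oxygen the prolyl hydroxylases that mark HIF-1 alpha for degradation lose activity, and the stabilised factor pairs with ARNT and binds promoters at a short core motif. Its known targets include most glycolytic enzymes, the glucose transporter GLUT1, the lactate exporter MCT4, the mitophagy receptor Bnip3 and the angiogenic factor Vegfa. Activated T cells also raise glycolysis through antigen receptor and cytokine signals, and solid tumors are commonly poor in oxygen and glucose and rich in lactate.

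Library totals ranged from 4859099 to 10333892 counts, and 13657 to 15312 genes had at least 1 count. The gene targeted in the Flox strain, Il23r, had 0, 0, 2 and 0 counts in the WT-labelled spleen libraries and 1, 0 and 9 in the Flox-labelled ones. In tumor it had 0, 2, 0 and 0 counts under the WT label and 4, 7 and 6 under the Flox label. These counts were not lower in the libraries labelled Flox, the position of the reads in the gene is not known, and groups are therefore named by their labels. Summed reads of 4 Y-linked genes lay between 401 and 974 CPM (counts scaled to library size) in the Flox-labelled libraries and between 0.141 and 1.56 CPM in the WT-labelled ones, other than both WT replicate 2 libraries (37.6 CPM in spleen and 127 in tumor). Genotype label and sex of the mice therefore cannot be told apart. Foxp3 was present in every library, at 98.2 to 268 CPM, as were Cd3e, a T cell receptor component, and the co-receptor Cd4. The other 3 genes of the Treg identity list were called higher in tumor, namely the inhibitory receptor Ctla4 (log2 3.29), the IL-2 receptor subunit Il2ra (1.47) and the transcription factor Ikzf2 (1.00). The summed level of the 6 did not overlap between tissues (2269.9 to 3826 CPM in spleen and 4726 to 9192 in tumor), and its part in the results below was not tested.

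RNA of the module took a larger share of the libraries of tumor-infiltrating Tregs than of splenic Tregs. The 37 genes took 0.280 to 0.381% of a library's counts in spleen (median 0.318%, n = 7) and 0.795 to 1.17% in tumor (median 1.04%, n = 7). Without Hif1a, the member with the most counts, the shares were 0.225 to 0.342% and 0.630 to 0.895%. The shares of the tissues did not overlap, with or without Hif1a. In bulk RNA, fewer cells that express a gene and less RNA per cell cannot be told apart.

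**Figure D1:**
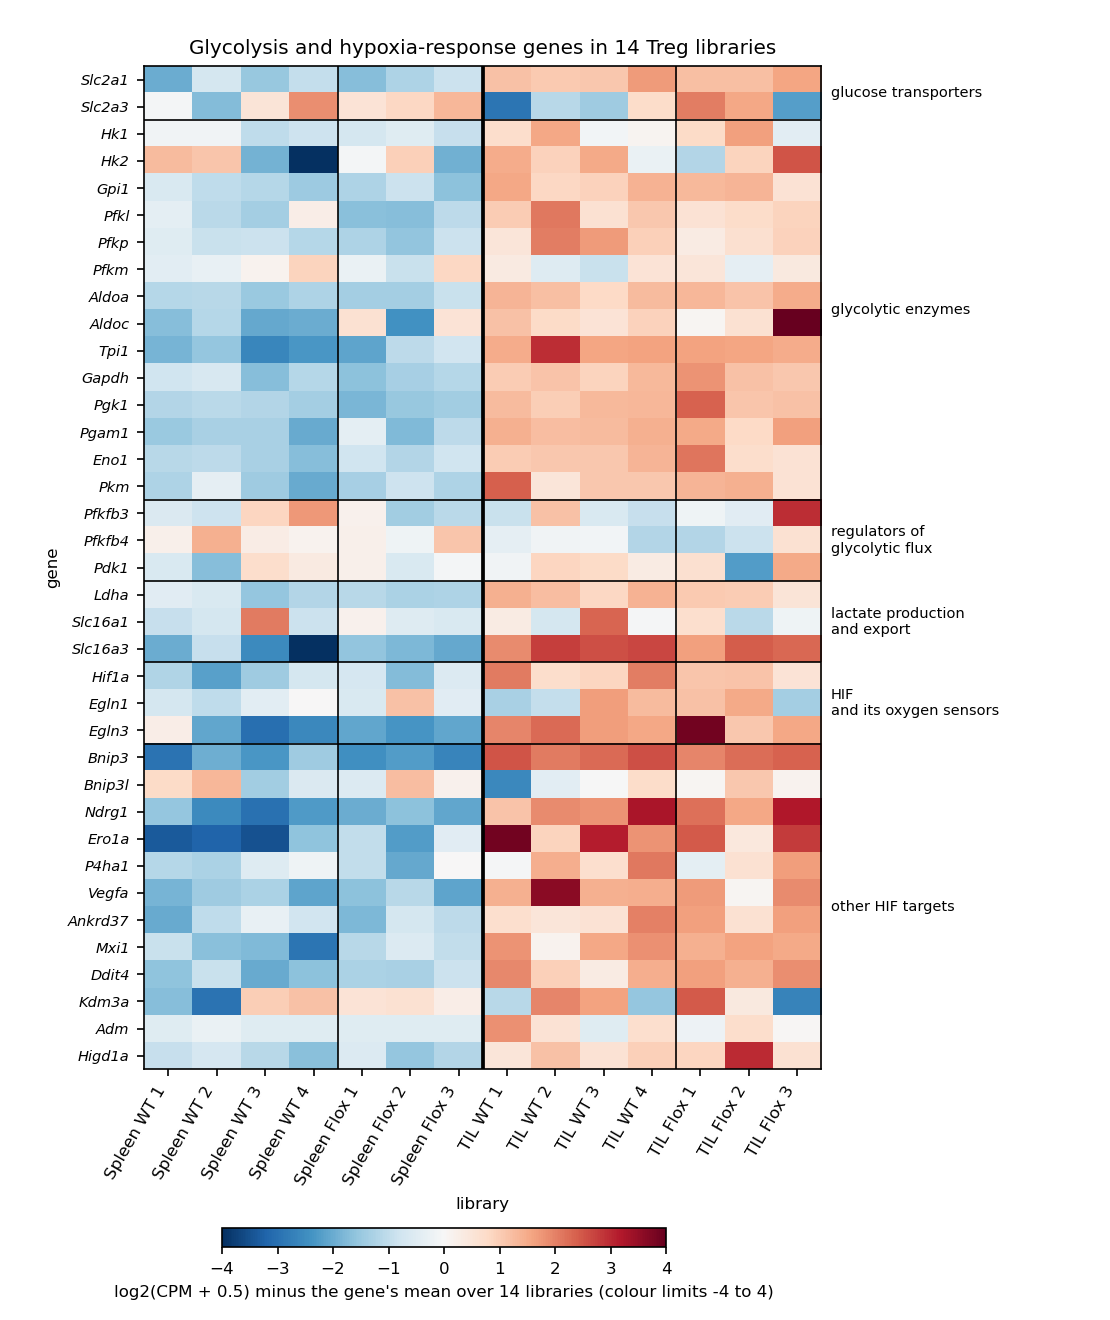
Each row is a member, ordered by role, and each column is a library. Colour gives log2(CPM + 0.5) minus the mean of that gene over the 14 libraries. Most rows turn from blue in the 7 spleen columns to red in the 7 tumor columns, while rows such as Slc2a3, Hk2, Pfkm, Pfkfb3, Bnip3l and Kdm3a vary from library to library within a tissue.

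Over all 14 libraries, 35 of the 37 members had enough counts to be tested between the tissues, and 26 of these were called higher in tumor while 0 were called lower. Calls here are Benjamini-Hochberg adjusted p-values under 0.05 in edgeR's quasi-likelihood test across 12008 genes, of which 14.5% were called higher and 12.9% lower. These shares make no allowance for members having been chosen with earlier results of these data known. The median log2 fold change of the 35 members was 2.43, against 0.02 over all genes tested. For 23 members the lowest tumor library lay above the highest spleen library, a pattern seen in 5.91% of all genes tested. By role, the members called higher were 1 of 2 glucose transporters, 12 of 14 glycolytic enzymes, 0 of the 2 tested regulators of flux, 2 of 3 lactate genes, 2 of 3 genes of HIF and its sensors, and 9 of the 11 tested other targets. Vegfa and Ankrd37 were too low for a test within spleen, so they passed the filter on low counts through their tumor level. Both are counted among the 26 called and the 23 without overlap. For them a higher tumor level was in part a condition of being tested.

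The promoters of 5 of these genes are shown because their transcripts rose together in tumor and because HIF binds the core ACGTG or GCGTG. The genes are those with the smallest p between tissues that matched the promoter table. Each run is the 250 bases before an annotated start, from RefSeq on GRCm38.p6, 5′ to 3′ on the strand of the gene, and capitals mark ACGTG or GCGTG on either strand (CACGT and CACGC are their reverse complements). The palindrome CACGTG, the E-box that MYC and related factors bind, counts as 2 overlapping matches.
Bnip3, chr7:138909507-138909756, minus strand: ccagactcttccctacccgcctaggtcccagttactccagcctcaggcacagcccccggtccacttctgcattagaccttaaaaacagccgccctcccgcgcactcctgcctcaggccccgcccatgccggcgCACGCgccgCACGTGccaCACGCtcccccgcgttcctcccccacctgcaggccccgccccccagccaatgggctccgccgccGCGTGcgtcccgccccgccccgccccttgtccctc
Vegfa, chr17:46032378-46032627, minus strand: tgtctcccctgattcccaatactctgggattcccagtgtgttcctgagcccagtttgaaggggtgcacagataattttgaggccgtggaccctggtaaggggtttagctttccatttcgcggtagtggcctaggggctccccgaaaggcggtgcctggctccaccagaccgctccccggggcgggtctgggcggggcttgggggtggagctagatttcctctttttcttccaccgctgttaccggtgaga
Aldoa, chr7:126799255-126799504, minus strand: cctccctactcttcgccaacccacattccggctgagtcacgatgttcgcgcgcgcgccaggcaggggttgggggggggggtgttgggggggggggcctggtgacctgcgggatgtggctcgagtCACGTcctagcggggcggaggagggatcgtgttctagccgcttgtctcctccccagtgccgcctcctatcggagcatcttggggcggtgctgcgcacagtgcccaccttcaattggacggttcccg
Ldha, chr7:46845554-46845803, plus strand: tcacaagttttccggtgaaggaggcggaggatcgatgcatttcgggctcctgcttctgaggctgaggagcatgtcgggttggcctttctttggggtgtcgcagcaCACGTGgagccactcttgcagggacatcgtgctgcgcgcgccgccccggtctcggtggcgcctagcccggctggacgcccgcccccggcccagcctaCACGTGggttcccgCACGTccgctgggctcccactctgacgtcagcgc
Pgk1, chrX:106186850-106187099, plus strand: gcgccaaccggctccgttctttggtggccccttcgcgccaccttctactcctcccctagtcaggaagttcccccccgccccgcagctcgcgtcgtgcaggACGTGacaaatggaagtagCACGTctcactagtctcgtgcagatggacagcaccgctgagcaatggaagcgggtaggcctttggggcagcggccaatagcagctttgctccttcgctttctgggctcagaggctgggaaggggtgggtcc

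The Bnip3 window held 5 core matches, with 1 CACGTG among them, and the Ldha window 5, with 2 CACGTG. The Pgk1 window held 2, the Aldoa window 1 and the Vegfa window 0. Of the 37 members, 34 had at least 1 promoter in the table, 52 promoters in all. ACGTG or GCGTG occurred in 78.8% of the 52, in 38.6% of all 32851 mouse promoters of this length and in 56.1% of the promoters of genes tested between tissues. The share was 80.6% for the 36 promoters of members called higher in tumor and 75.0% for the 16 promoters of the other members. By gene it occurred in 92.0% of the 25 members called higher and in 100% of the 9 others. These 9 include Pfkfb4 and Adm, which were not tested between tissues. All members were chosen by name for glycolysis or HIF, so these shares are a description only. Ldha, Aldoa and Vegfa have 2, 3 and 2 annotated starts in the table, and 1 of each is shown, chosen after the matches were seen. The window of the other Vegfa start held 2 matches, that of the other Ldha start 1, and those of the other Aldoa starts 1 and 0. These are letter matches in a short window, and no binding was measured.

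The glucose transporters behaved differently from each other. Slc2a1, which encodes the widely expressed GLUT1, lay at 1.43, 4.14, 2.17 and 3.38 CPM in the WT-labelled spleen libraries and 1.81, 2.74 and 3.68 in the Flox-labelled ones. In tumor it lay at 16.6, 15.1, 15.6 and 24.0 CPM (WT) and 16.8, 16.8 and 22.0 (Flox). Every tumor library exceeded every spleen library, and the rise was 6.55-fold (log2 2.71 ± 0.32 SE, adjusted p = 6.17e-05). Slc2a3, which encodes the high-affinity transporter GLUT3, ranged from 24.1 to 299 CPM in spleen (median 120) and from 10.4 to 338 CPM in tumor (median 37.9). Its tumor libraries lay both above and below those of spleen, and the difference was not called (log2 -0.47 ± 0.69 SE, adjusted p = 0.649).

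Hexokinases trap glucose in the cell by phosphorylation. Hk1 had a median of 19.7 CPM in spleen (15.6 to 29.5) and 52.9 in tumor (23.9 to 101), with overlap, and rose 2.64-fold (adjusted p = 0.0202). That call was lost when Spleen Flox replicate 3 or TIL Flox replicate 2 was left out, or both WT replicate 2 libraries together, with log2 fold changes of 1.34, 1.08 and 1.20. Hk2, the inducible hexokinase of activated lymphocytes, spread from 1.69 CPM in Spleen WT replicate 4 to 213 CPM in Spleen WT replicate 1, and in tumor from 39.4 to 508 CPM. Its log2 difference of 1.07 ± 0.81 was not called (adjusted p = 0.349).

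After the hexokinases, the upper glycolytic enzymes were called higher except Pfkm. Gpi1, glucose-6-phosphate isomerase, lay at 96.0 to 195 CPM in spleen (median 136) and 452 to 874 CPM in tumor (median 739), a 4.88-fold rise. Phosphofructokinase, the committing step, has liver, platelet and muscle types. Pfkl (4.18-fold) and Pfkp (4.21-fold) rose, with adjusted p-values of 0.00142 and 0.00074 and no overlap between tissues. Pfkl lay at 5.47 to 22.7 CPM in spleen and 28.3 to 82.8 in tumor, and Pfkp at 12.6 to 27.2 CPM in spleen and 48.5 to 160.1 in tumor. Pfkm, the muscle type, had medians of 3.11 CPM in spleen and 5.08 in tumor within ranges of 1.87 to 7.52 and 1.83 to 5.88, and was not called (log2 -0.01 ± 0.39, adjusted p = 0.995). Reads of Pfkm and Pfkp may be shared with the overlapping genes Senp1 and Pitrm1, since no strand setting is known.

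Aldolase cleaves the phosphorylated sugar. Aldoa was the member whose libraries differed least within groups, at 73.0, 75.1, 58.0 and 68.1 CPM (WT) and 62.2, 62.2 and 87.7 CPM (Flox) in spleen. In tumor it lay at 417, 370, 282 and 391 CPM (WT) and 406, 355 and 449 CPM (Flox). The rise was 5.51-fold (log2 2.46 ± 0.25, adjusted p = 1.59e-05), far beyond the spread in either tissue. Aldoc, the type best known from brain, rose 6.48-fold with overlap (adjusted p = 0.00893), from a median of 2.15 CPM to 14.2 CPM. A single library, TIL Flox replicate 3, reached 144 CPM, and without it the log2 fold change was 1.51 in place of 2.70.

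Every lower glycolytic enzyme of the list was higher in tumor with no overlap between the tissues. Tpi1, triose phosphate isomerase, had the largest fold change of the 14 glycolytic enzymes, with a median of 7.06 CPM in spleen (3.95 to 15.4) and 80.4 in tumor (75.6 to 211), an 11.3-fold rise (log2 3.49 ± 0.41, adjusted p = 5.62e-05). Its highest library was TIL WT replicate 2, and the other 6 tumor libraries lay between 75.6 and 82.8 CPM. Pgk1, phosphoglycerate kinase, lay at 8.72 to 15.1 CPM in spleen and 65.1 to 168 CPM in tumor, a 7.33-fold rise, with TIL Flox replicate 1 highest. Pgam1, phosphoglycerate mutase, rose 6.28-fold, with 3.38 to 11.6 CPM in spleen and 27.0 to 48.2 in tumor. Gapdh rose 5.69-fold, Pkm, pyruvate kinase, 5.40-fold, and Eno1, enolase, 5.02-fold, with adjusted p-values of 8.4e-05, 0.000434 and 0.000154. Gapdh lay at 4.34 to 9.44 CPM in spleen and 28.3 to 54.0 in tumor. Pkm lay at 54.1 to 172 CPM in spleen and 312 to 1160.0 in tumor, and Eno1 at 56.2 to 105 CPM in spleen and 270.3 to 814 in tumor.

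Some of these enzyme levels are uncertain because of near-identical copies. Gapdh has 79 copies of at least 95% identity in the mouse annotation, 76 of them pseudogenes, and 4 copies listed in the table held 5162 counts against 2510 for Gapdh itself. Eno1 has 3 such copies, 1 of them in the table with 12349 counts against 30440. Pgk1 and Ldha have 4 copies each and Bnip3 has 5, none of which is listed. The counting rule for reads shared with such copies is not known here.

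Neither tested regulator of flux was called. Pfkfb3 makes the allosteric activator of phosphofructokinase, and it lay at 15.9, 13.3, 43.9 and 82.0 CPM (WT) and 27.4, 8.96 and 11.2 CPM (Flox) in spleen. In tumor it lay at 12.7, 55.0, 15.5 and 12.5 CPM (WT) and 21.4, 17.3 and 192 CPM (Flox). The 1 library at 192 CPM, TIL Flox replicate 3, set the sign of its log2 difference, which was 0.80 ± 0.66 with it and -0.20 without it, neither called. Reads of Pfkfb3 may be shared with the overlapping gene Gm10851, which held 14394 counts against 4516. Pdk1, which keeps pyruvate out of the TCA cycle, ranged from 35.4 to 190 CPM in spleen and from 24.5 to 334 CPM in tumor. It was not called (log2 0.65 ± 0.51, adjusted p = 0.367).

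Pfkfb4, a relative of Pfkfb3, was too low to be tested, with 89 counts over the 7 spleen libraries and 23 over the 7 tumor libraries. The ratio of its shares of counts was 0.245, with an exact 95% interval of 0.148 to 0.392 that covers counting error only. Its values were 0.498 to 2.57 CPM in spleen and 0 to 1.24 CPM in tumor, with overlap. It passed the filter on low counts when 1 of several libraries was left out, and was called lower in tumor only without TIL Flox replicate 3 (log2 -2.89, adjusted p = 0.0136).

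Genes of lactate handling split by transporter. Ldha, whose product converts pyruvate to lactate, lay at 308, 276, 145 and 190 CPM (WT) and 196, 176 and 181 CPM (Flox) in spleen. In tumor it lay at 1141, 999.9, 757 and 1117 CPM (WT) and 874, 853 and 608 CPM (Flox), and rose 4.29-fold (log2 2.10 ± 0.23, adjusted p = 4.14e-05). Slc16a3 encodes MCT4, the low-affinity transporter typical of cells that export lactate. It had a median of 42.6 CPM in spleen (3.57 to 88.3) and 899.7 CPM in tumor (530 to 1158), and rose 19.2-fold (log2 4.26 ± 0.52, adjusted p = 8.46e-05). Slc16a1 encodes MCT1, which carries lactate in either direction. Its medians were 8.54 and 12.9 CPM, and it was not called (log2 0.33 ± 0.63, adjusted p = 0.729). Spleen WT replicate 3 and TIL WT replicate 3 stood far above the other libraries for Slc16a1, at 58.3 and 68.1 CPM, and its difference took the other sign (-0.21) without TIL WT replicate 3. Slc16a3 shares bases with the overlapping gene Csnk1d, which held 5877 counts against 52582.

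The transcript of HIF-1 alpha itself was more abundant in tumor. Hif1a lay at 555, 286, 484 and 795 CPM (WT) and 806, 384 and 878 CPM (Flox) in spleen, and at 5430, 2087, 2347 and 5287 CPM (WT) and 2791, 2867 and 1888 CPM (Flox) in tumor. The tissues did not overlap, and the rise was 5.11-fold (log2 2.35 ± 0.31, adjusted p = 0.000157). HIF-1 alpha is known to be controlled chiefly at the protein level, which was not measured. Egln3, which encodes the prolyl hydroxylase PHD3 and is itself a HIF target, rose 21.0-fold (log2 4.39 ± 0.68, adjusted p = 0.00044), from a median of 1.00 CPM in spleen (0.296 to 7.17) to 19.8 in tumor (13.1 to 93.2). Its log2 fold change was 5.29 without Spleen WT replicate 1 and 3.68 without TIL Flox replicate 1, the highest library of each tissue. Egln1, which encodes the main oxygen sensor PHD2, ranged from 271 to 1232 CPM in spleen and from 211 to 1754 CPM in tumor and was not called (log2 0.89 ± 0.54, adjusted p = 0.239).

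Among the other HIF targets, the genes with the smallest p were Bnip3 and Vegfa, the latter tested only because of its tumor level. Bnip3, which marks mitochondria for removal, lay at 0.717, 1.95, 1.38 and 3.01 CPM (WT) and 1.20, 1.49 and 1.00 CPM (Flox) in spleen. In tumor it lay at 52.7, 39.6, 44.6 and 55.3 CPM (WT) and 35.7, 44.1 and 47.9 CPM (Flox), a 31.3-fold rise (log2 4.97 ± 0.37, adjusted p = 1.17e-06). All 7 tumor libraries stood within a narrow band far above the spleen libraries. Vegfa, the endothelial growth factor, lay at 0 to 0.498 CPM in spleen (15 counts over 7 libraries) and 1.79 to 25.8 CPM in tumor (493 counts), with TIL WT replicate 2 highest and a 32.5-fold fitted rise (log2 5.02 ± 0.65, adjusted p = 1.4e-05). Bnip3l, the paralog of Bnip3 also called Nix, ranged from 74.2 to 490 CPM in spleen and 31.8 to 410 CPM in tumor and was not called (log2 -0.26 ± 0.53, adjusted p = 0.744).

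Ndrg1, a stress-induced gene that marks hypoxic cells, lay at 5.82 to 16.7 CPM in spleen (median 11.2) and 111 to 479 CPM in tumor (median 185), a 22.5-fold rise. Ero1a, an oxidase that forms disulfide bonds in the endoplasmic reticulum, rose 21.5-fold, from 7.10 to 62.6 CPM (median 17.9) to 115 to 1240 CPM (median 468). Both had tissues that did not overlap, with adjusted p-values of 2.78e-05 and 0.000247. Mxi1, an antagonist of MYC, rose 6.75-fold, and Ddit4, an inhibitor of the growth kinase complex mTORC1 also called REDD1, rose 6.90-fold. Mxi1 lay at 37.2 to 194 CPM in spleen and 313 to 1017 in tumor, and Ddit4 at 16.8 to 37.6 CPM in spleen and 86.1 to 263 in tumor, with no overlap. Ankrd37 rose 7.36-fold and Higd1a, a small protein of the mitochondrial inner membrane, 6.06-fold, the latter with TIL Flox replicate 2 at 45.4 CPM and the other tumor libraries between 7.62 and 12.6 CPM. Ankrd37 lay at 0.102 to 1.48 CPM in spleen and 2.90 to 9.19 in tumor, and its reads may be shared with the overlapping gene Ufsp2, which held 2625 counts against 344. Higd1a lay at 1.32 to 3.51 CPM in spleen, and without TIL Flox replicate 2 its log2 fold change was 1.99 in place of 2.60.

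P4ha1, a collagen prolyl hydroxylase subunit, rose 3.56-fold with overlap (adjusted p = 0.0127), with 9.20 to 39.9 CPM in spleen and 30.5 to 174 in tumor. Kdm3a, a histone demethylase, lay between 17.9 and 320 CPM in spleen and between 22.0 and 781 CPM in tumor and was not called (log2 0.73 ± 0.80, adjusted p = 0.529). Without TIL Flox replicate 1 its difference was -0.11. Adm, which encodes the vasodilator adrenomedullin, was too low to be tested, with 1 count over the spleen libraries and 28 over the tumor libraries (ratio of shares 26.6, exact 95% interval 4.40 to 1087, counting error only). It had counts in 6 of 7 tumor libraries and 1 of 7 spleen libraries, and was called higher when no filter was used (log2 4.30, adjusted p = 0.0217).

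**Figure D2:**
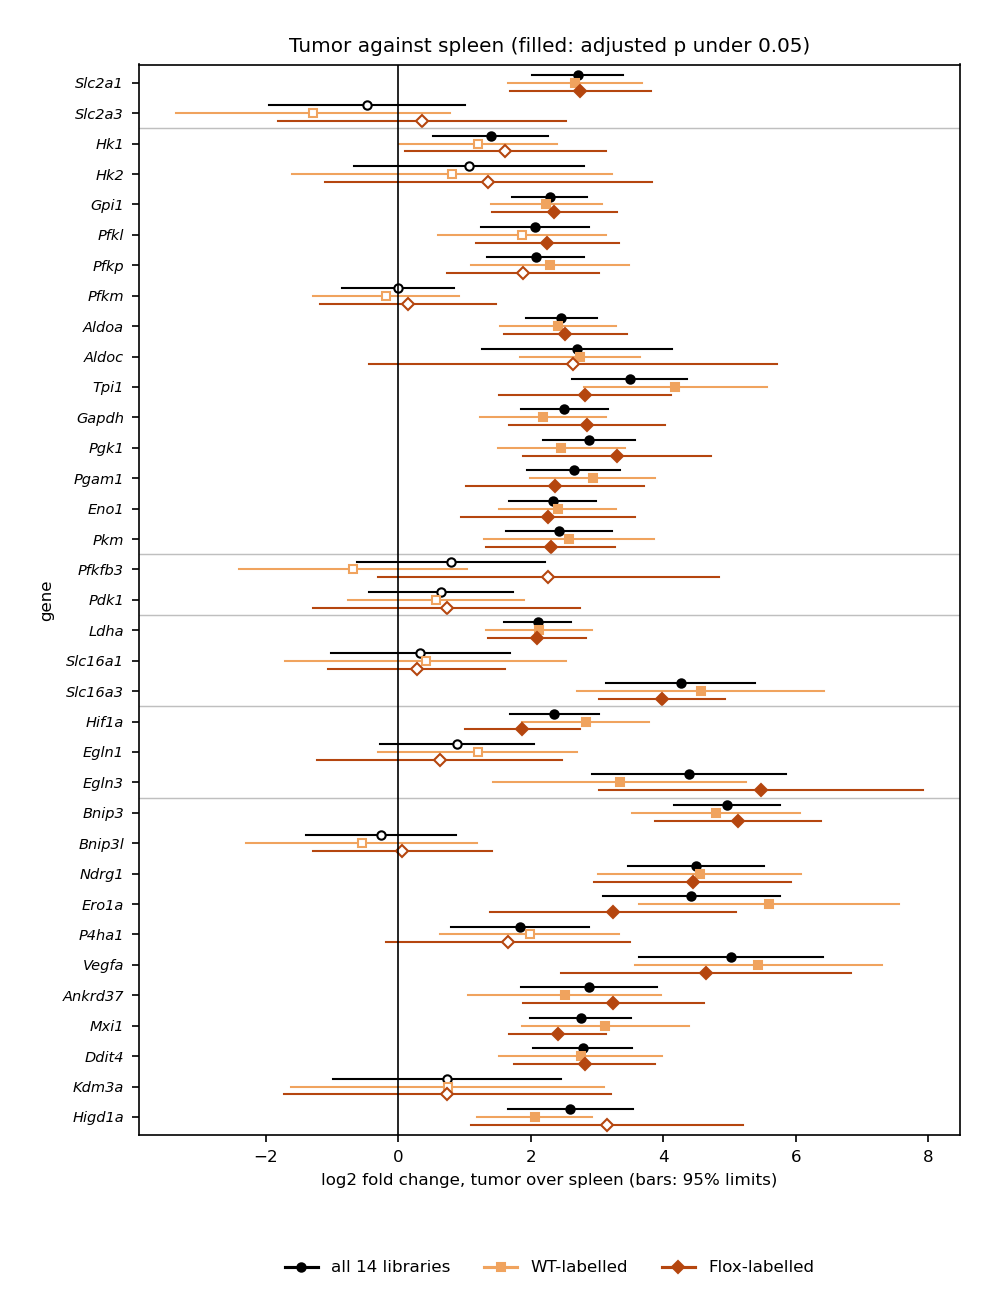
Points give the log2 fold change of tumor over spleen for the 35 members tested, and bars the 95% limits. Black circles use all 14 libraries, orange squares the WT-labelled and dark diamonds the Flox-labelled ones, and filled symbols passed an adjusted p of 0.05. Of the members, 26, 23 and 21 passed in these fits. Over all 14 libraries, the intervals of the 9 members not called spanned 0. Those of Slc2a3, Pfkm, Slc16a1 and Bnip3l, among others, spanned 0 in each fit.

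The tissue difference was found under either genotype label. In the WT-labelled libraries alone, 23 of 35 members tested were called higher and 0 lower, against 5.04% called higher and 4.6% called lower of 10560 genes, with a median log2 fold change of 2.41. Groups did not overlap for 26 members, all higher in tumor, against 9.6% of genes higher. In the Flox-labelled libraries alone, 21 of 35 were called higher and 0 lower, against 5.72% called higher and 5.4% called lower of 10760 genes, with a median of 2.36. Groups did not overlap for 24 members, all higher in tumor, against 16.9% of genes higher. These fits use fewer libraries and are parts of the fit over all 14. P4ha1 and Hk1 were called in neither, Pfkl only among Flox-labelled libraries, and Pfkp, Aldoc and Higd1a only among WT-labelled ones, and the test of the difference between labels called none of them. The members that kept their call under every alternative that gave them an adjusted p were 10 of 23 in WT-labelled libraries. Among these 10, Vegfa had an adjusted p in 17 of 18 alternatives. In Flox-labelled libraries 4 of 21 kept it, namely Bnip3, Slc16a3, Ndrg1 and Mxi1. With all 14 libraries, 25 of 26 kept it, with Hk1 as the exception, also without both WT replicate 2 libraries, whose Y-linked reads stood apart.

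In 6 of 10 pairs of related genes, the ratio of the genes shifted between the tissues. For 10 pairs, the log2 ratio of the paired genes in each library (CPM + 0.5) was compared between 7 tumor and 7 spleen libraries with a 2-sided exact permutation test, adjusted over the 10. The ratio of Slc2a1 to Slc2a3 shifted by 3.50 toward Slc2a1 (adjusted p = 0.00777). The ratio of Slc16a3 to Slc16a1 shifted by 4.27, from a mean of 1.48 in spleen to 5.75 in tumor (adjusted p = 0.00194). That of Bnip3 to Bnip3l shifted by 4.85 (adjusted p = 0.00194) and that of Egln3 to Egln1 by 3.42 (adjusted p = 0.00699). Pfkl and Pfkp each gained on Pfkm, by 1.99 and 2.01 (adjusted p = 0.00194 and 0.00291). In each of these 6 pairs a member called higher was set against one not called, in the same libraries. The shifts are therefore not separate from the calls given above. Among the other pairs, Pfkl to Pfkp shifted by -0.02, Aldoa to Aldoc by 0.12, Hk1 to Hk2 by -0.49 and Pfkfb3 to Pfkfb4 by 1.22, with adjusted p-values of 0.955, 0.955, 0.823 and 0.136. Without Spleen WT replicate 4, Pfkfb3 to Pfkfb4 shifted by 1.59, with an unadjusted exact permutation p of 0.0268 against 0.0950 with all libraries. No test compared the shifts of different families.

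**Figure D3:**
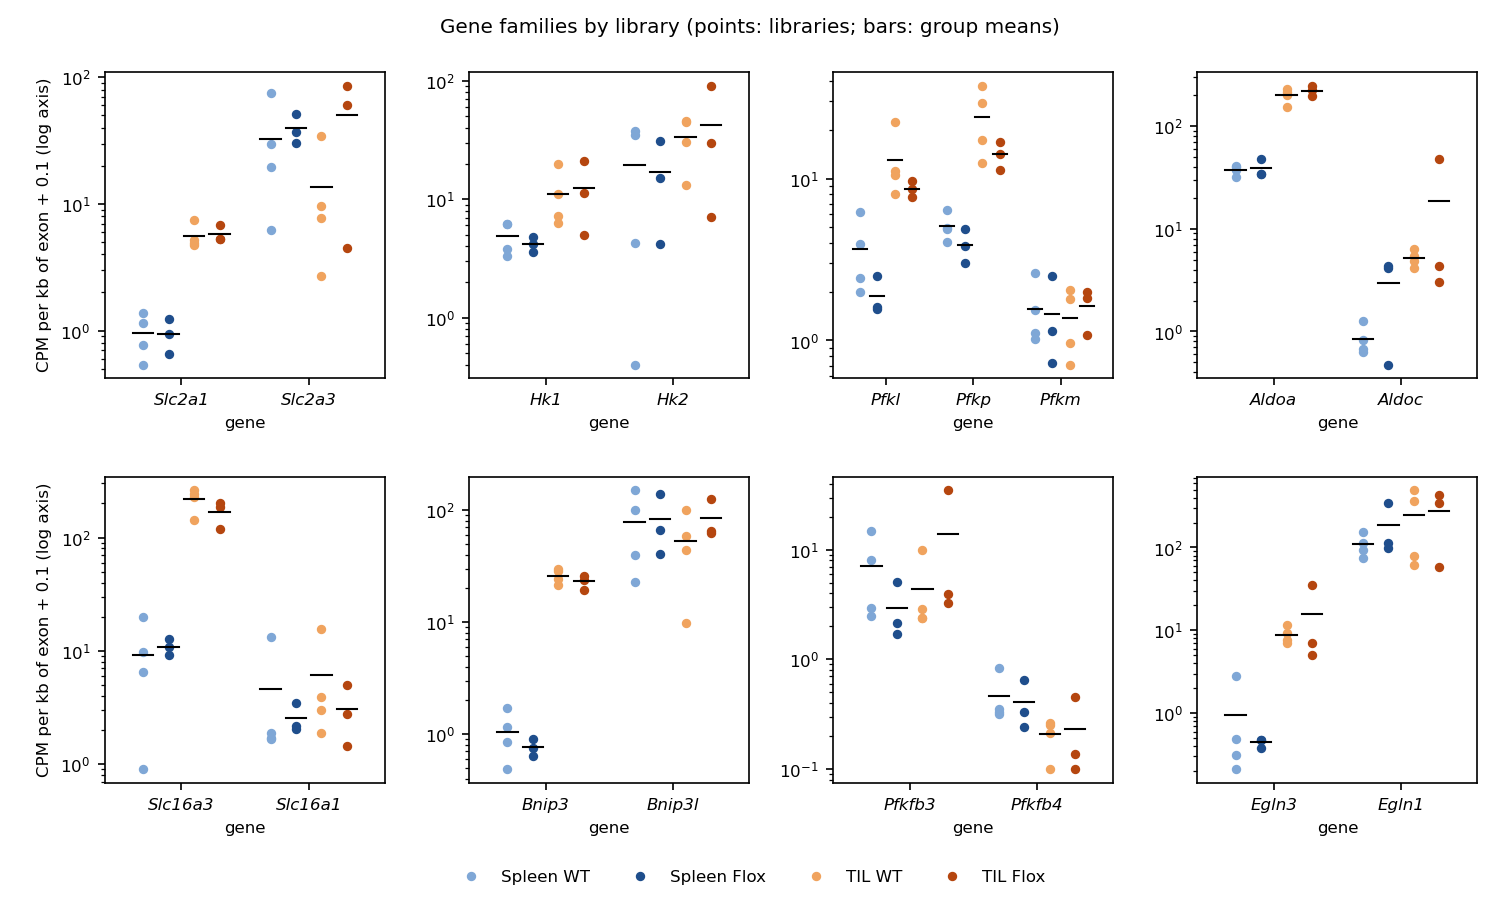
Points are libraries and bars group means, on a log axis of CPM per kilobase of exon plus 0.1. The low member of each of Slc2a1 and Slc2a3, Bnip3 and Bnip3l, and Egln3 and Egln1 rose in tumor, and Slc16a3 left Slc16a1 behind, while the level of the other gene in each pair overlapped between tissues.

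Levels of different genes were compared only per kilobase of exon. In spleen Slc2a1 averaged 0.848 ± 0.311 CPM per kilobase (SD, n = 7) against 35.6 ± 22.5 for Slc2a3. In tumor the averages were 5.56 ± 1.05 and 29.1 ± 32.5, so Slc2a3 remained the higher in 5 of 7 tumor libraries although Slc2a1 was the one that rose. Bnip3 likewise went from 0.828 ± 0.408 to 24.6 ± 3.73 CPM per kilobase beside 79.8 ± 50.9 and 66.4 ± 37.2 for Bnip3l, and exceeded it in 1 of 7 tumor libraries. Slc16a3 lay above Slc16a1 in 5 of 7 spleen libraries and in 7 of 7 tumor libraries, at 196 ± 51.7 against 4.69 ± 4.86 CPM per kilobase in tumor. Egln1 stayed above Egln3 in all 14 libraries.

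The order of levels per kilobase also differed between tissues. In spleen Egln1 (142 ± 91.9), Ldha (111 ± 31.0) and Hif1a (110 ± 42.3 CPM per kilobase) had the highest means of the module, and did not differ from each other beyond their spread. In tumor the highest were Hif1a (595 ± 273) and Ldha (479 ± 102), which overlapped. They were followed by Egln1 (261 ± 188), Gpi1 (234 ± 54.6), Pkm (214 ± 110), Aldoa (209 ± 29.3), Slc16a3 (196 ± 51.7) and Eno1 (167 ± 71.7), whose spreads also overlapped. Vegfa stayed among the lowest members even in tumor, at 2.34 ± 2.26 CPM per kilobase.

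Members differed widely in how far libraries of 1 group spread. The pooled within-group SD of log2(CPM + 0.5) had a median of 0.668 over the 35 members, against 0.926 over all 12008 genes tested. It was smallest for Aldoa (0.220), Ldha (0.339), Gapdh (0.344) and Pgk1 (0.348), and largest for Hk2 (2.06), Kdm3a (1.88) and Slc2a3 (1.56). The 26 members called higher in tumor had a median SD of 0.591 and the 9 not called one of 1.20. The test itself depends on this spread, so the last comparison is a description only. No tumor library was the highest for most of the called members: TIL WT replicates 1 and 4 were highest for 6 of 26 each, TIL WT replicate 2 for 5, TIL Flox replicates 1, 2 and 3 for 4, 2 and 3, and TIL WT replicate 3 for 0.

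**Figure D4:**
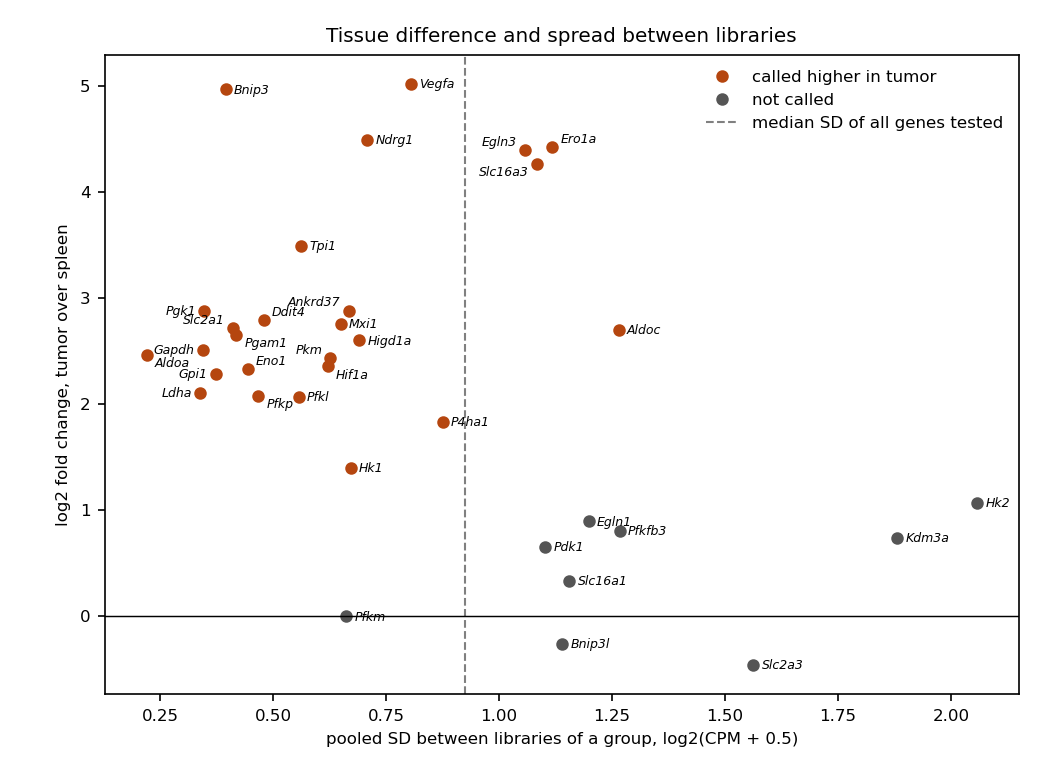
Each point is a member, with the pooled SD between libraries of a group in log2(CPM + 0.5) on the x axis and the log2 fold change of tumor over spleen on the y axis. Members called higher are orange, and the dashed line marks the median SD of all genes tested, 0.926. Pfkm is the only member below that line that was not called.

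Other genes of the pathway were read from lists chosen for their role. In the HIF machinery, 8 of 15 tested genes were called higher and 0 lower over all 14 libraries. Of all 12008 genes, 14.5% were called higher and 12.9% lower. They included Arnt2, a partner of HIF alpha subunits, with 2.29 ± 0.994 CPM in spleen and 26.7 ± 4.35 in tumor (SD, n = 7; log2 3.55), and Epas1, which encodes HIF-2 alpha, with 0.614 ± 0.209 and 7.43 ± 7.52 CPM (log2 3.53). Hsp90aa1, the HIF chaperone, and Siah2, a ubiquitin ligase for prolyl hydroxylases, also rose, by log2 1.29 and 1.87. Of 24 tested HIF targets outside the module, 14 were called higher and 1 lower, among them Plod2 (log2 4.33), a collagen lysyl hydroxylase, Hilpda (4.06), a lipid droplet protein, Bhlhe40 (4.02) and Rbpj (3.99), both transcription factors. Hilpda lay at 3.28 ± 0.982 CPM in spleen and 55.3 ± 12.6 in tumor. Within spleen alone, 19 genes of this target list and 14 of the machinery list had enough counts for a test. For genes not tested there, a higher tumor level may have been in part a condition of being tested.

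Other metabolic genes were counted in 3 lists, beside a background of 14.5% of all 12008 genes called higher and 12.9% called lower. Of 11 tested other glycolysis genes, 3 were called higher, including the transporter Slc2a8 (log2 3.36, 15.7 ± 29.8 CPM in tumor) and the enolase Eno2 (3.76, 16.6 ± 33.6 CPM in tumor), whose tumor libraries spread widely, and 2 lower, Eno3 (-2.25) and the ADP-dependent glucokinase Adpgk (-1.63). Of 27 tested genes of pyruvate entry, the pentose phosphate pathway and the TCA cycle, 1 was called higher (Pgd, log2 1.67) and 1 lower (Pdk2, -1.99), and their median log2 fold change was 0.02. Of 18 tested genes of mTORC1, AMPK and MYC regulation, 0 were called higher and 2 lower, namely Myc (-2.26), with 63.2 ± 17.6 CPM in spleen and 13.2 ± 6.46 in tumor, and Rptor (-2.03). The median of that list was -0.38. No test compared these lists with the module.

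Markers of other cells also moved between the tissues, beside 14.5% of all 12008 genes called higher and 12.9% called lower. Of the fibroblast and endothelial markers, 4 of 5 tested were called higher in tumor, with Col3a1 at 0 to 0.702 CPM in spleen and 5.59 to 93.2 in tumor and Dcn at 0 to 0.0986 and 1.29 to 68.1 CPM. The summed level of all 10 overlapped between tissues (55.5 to 164 and 37.6 to 293 CPM), with Lum and Cdh5 at 0 in spleen, and Pecam1 made up most of the spleen sum. Of the macrophage and monocyte markers, 6 of 14 tested were called higher and 2 lower. None of the 15 was at 0 in all libraries of a tissue, though Fcgr1 was at 0 in the Flox-labelled spleen libraries. The sums of these 15 were 204 to 412 CPM in spleen and 37.5 to 307 in tumor. Apoe made up most of the spleen sum except in Spleen WT replicate 2, at 152 to 256 CPM in spleen and 14.3 to 157 in tumor. Adgre1 held 194 CPM in Spleen WT replicate 2 and 143 in TIL WT replicate 2. Markers of lower level could go the other way from these sums. Cd14 lay at 0 to 0.512 CPM in spleen and 0.893 to 6.64 in tumor, and C1qc at 0.498 to 3.51 and 2.93 to 11.6. Both dendritic cell markers tested were called higher (sums of 0.592 to 2.65 and 5.64 to 27.2 CPM). None of the 6 was at 0 in all libraries of a tissue. Cd209a was at 0 in the WT-labelled tumor libraries, and Clec9a and Siglech in the Flox-labelled ones. Within spleen alone, 0 dendritic cell markers and 1 fibroblast or endothelial marker had enough counts for a test. For markers of these 2 lists not tested there, a higher tumor level was in part a condition of being tested. The part of all these markers in the rise of the module was not tested.

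Of the carcinoma markers, only Epcam had enough counts for a test, and it was called lower in tumor, at 3.75 to 23.4 CPM in spleen and 0.391 to 3.94 in tumor. Krt18 was at 0 to 0.502 CPM in spleen and 0 to 0.368 in tumor. Krt19 and Cldn4 were at 0 in all 14 libraries, and Krt8 in all but TIL Flox replicate 3. B cell markers fell in 6 of 6 tested (sums of 234 to 1710 and 1.53 to 99.7 CPM, with Pax5 at 0 in tumor), and erythroid markers fell in 4 of 4 (56.4 to 591 and 0.128 to 31.8 CPM). Neutrophil markers were called in 0 of 3 tested (0.373 to 51.6 and 0.141 to 167 CPM), with Ly6g at 0 in spleen and Retnlg at 0 in tumor. The highest tumor sum, in TIL Flox replicate 2, came almost wholly from Csf3r (166 CPM), with S100a8 and S100a9 at 0 there. CD8 T and NK cell markers were called lower in 2 of 4 (7.21 to 39.7 and 3.24 to 8.98 CPM), with Klrb1c at 0 in tumor. Within tumor alone, 2 B cell, 1 CD8 T or NK cell and 0 erythroid markers had enough counts for a test. A higher spleen level was thus in part a condition of testing such markers. Among genes induced by cell handling and stress, 6 of 18 were called higher in tumor and 0 lower, with sums of 1259 to 2691 and 1489 to 3528 CPM. Of 13 mitochondrially encoded genes, 5 were called lower. The shares over all 12008 genes were 14.5% called higher and 12.9% called lower. The part of these differences in the module's rise was not tested.

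Between genotype labels within tumor, the comparison that the series states, 0 of 35 members tested were called in edgeR's quasi-likelihood test, and 0 had an unadjusted p under 0.05. Over all 10777 genes tested, 0.0278% were called and 9.8% had an unadjusted p under 0.05. DESeq2 also called 0 members there, and 256 genes in all. The median log2 fold change of the members, Flox over WT, was 0.14, against -0.06 over all genes. The 95% limits lay within 4-fold in either direction for 21 of the 35, and within 2-fold for 2, so changes of 2-fold or more could not be told from none for most members.

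For 3 of the 4 members with the smallest p in tumor, the sign of the difference turned when 1 library was left out. Aldoc lay at 18.8, 14.2, 12.1 and 15.7 CPM (WT) and 8.67, 12.6 and 144 CPM (Flox). Its log2 difference was 1.83 ± 0.93 (adjusted p = 0.513), and -0.49 without TIL Flox replicate 3. That library also had the highest sum of macrophage and monocyte markers among the tumor libraries (307 CPM, others 37.5 to 214), whose part in its values was not tested. Slc2a3 lay at 10.4, 37.9, 30.3 and 135 CPM (WT) and 338, 239 and 17.5 CPM (Flox), with a difference of 1.91 ± 1.09 (adjusted p = 0.554). Both Flox-labelled libraries at the top exceeded all WT-labelled ones, and the third lay below 3 of them. Higd1a differed by 1.13 ± 0.65, and by -0.11 without TIL Flox replicate 2. Pfkfb3 differed by 1.64 ± 1.00, and by -0.30 without TIL Flox replicate 3. Hif1a differed by -0.58 ± 0.38, Ldha by -0.37 ± 0.32 and Slc16a3 by -0.38 ± 0.37, with adjusted p-values of 0.596, 0.707 and 0.751.

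**Figure D5:**
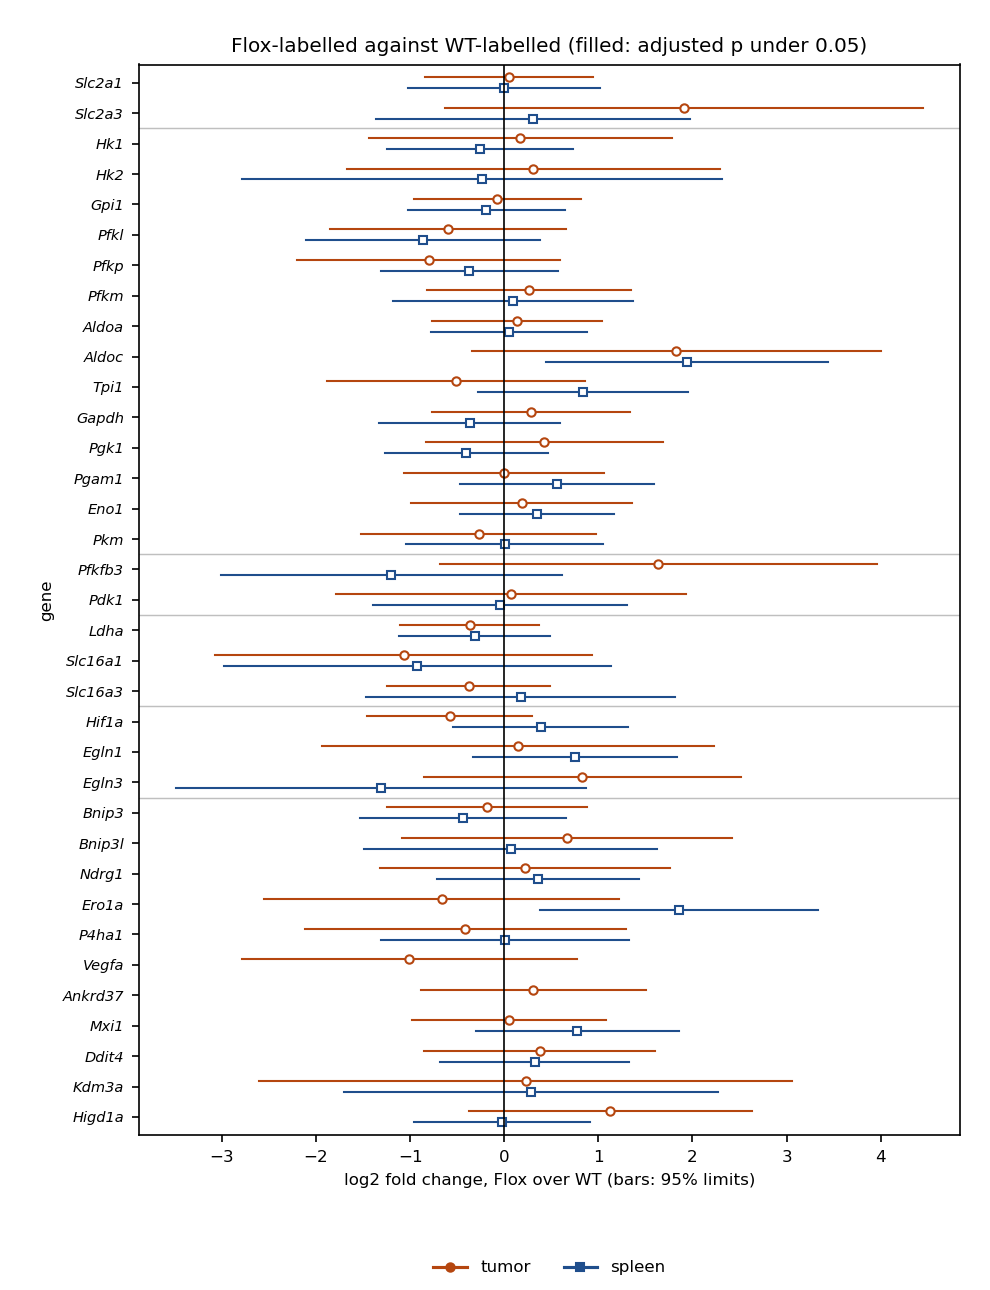
Points give the log2 fold change of Flox-labelled over WT-labelled libraries, with circles for tumor and squares for spleen, and bars give the 95% limits. No symbol is filled because no member passed an adjusted p of 0.05, and the widest intervals are those of Kdm3a in tumor and Hk2 in spleen.

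In spleen, 0 of 33 members tested were called between genotype labels, against 0.0549% of 10935 genes, and DESeq2 called 0 members and 124 genes. An unadjusted p under 0.05 was found for 2 members, Aldoc and Ero1a, against 9.11% of all genes. Aldoc lay at 2.15, 3.43, 1.58 and 1.69 CPM (WT) and 12.6, 1.12 and 12.1 CPM (Flox), with a log2 difference of 1.94 ± 0.65 (adjusted p = 0.491). The Flox-labelled libraries were the highest 2 and the lowest 1. Ero1a lay at 7.78, 8.82, 7.10 and 27.4 CPM (WT) and 43.2, 17.9 and 62.6 CPM (Flox), a difference of 1.86 ± 0.64 (adjusted p = 0.513) with 1 WT-labelled library inside the Flox range. Tpi1 and Mxi1 followed, with differences of 0.84 ± 0.48 and 0.77 ± 0.47 (adjusted p = 0.62 and 0.63). Pgk1, which is X-linked, was the only member whose groups did not overlap, lower under the Flox label by log2 -0.40 ± 0.38 (adjusted p = 0.755), a pattern seen in 3.13% of genes. The 95% limits lay within 4-fold for 25 of the 33 members.

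Whether the difference between genotype labels itself differed between tumor and spleen was tested over all 14 libraries, which the comparisons above share. None of the 35 members passed, and neither did any of the 12008 genes (0.0% called), while 2 members and 12.0% of all genes had an unadjusted p under 0.05. DESeq2 called 0 members and 134 genes. Pfkfb3 had a difference of differences of 2.95 ± 1.33 (adjusted p = 0.409), and Ero1a had one of -2.36 ± 1.09 (adjusted p = 0.415). Ero1a thus lay higher under the Flox label in spleen and lower in tumor (-0.67 ± 0.81), without passing in either. Tpi1 (-1.36 ± 0.74) and Egln3 (2.15 ± 1.29) followed, with adjusted p-values of 0.483 and 0.527. Without TIL Flox replicate 3 the value of Pfkfb3 was 0.97, and without both WT replicate 2 libraries it was 4.03. That of Egln3 was 0.34 without Spleen WT replicate 1 and 0.75 without TIL Flox replicate 1. Leaving out Spleen WT replicate 4 or TIL WT replicate 1 gave -3.03 and -1.78 for Ero1a, and leaving out TIL WT replicate 2 gave -0.86 for Tpi1. In the other HIF and glycolysis lists, 0 genes were called between genotype labels in either tissue.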

How the data were processed

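RNA of sorted Tregs was sequenced in 14 libraries. The authors deposited 1 table of raw counts per gene (27179 genes, no columns left unmapped), and the build was mm10, per the submitters' processing notes. For the aligner, counter, annotation and strand setting, nothing is given in the sources used here. Groups were taken from the labels. Counts were fitted with edgeR 4.0.16 in R 4.3.3 (TMM, filterByExpr by group, quasi-likelihood F test), with p-values adjusted over all genes tested, for tumor against spleen (all 14, WT, Flox), Flox against WT in each tissue, and the difference between these. CPM use TMM-adjusted library sizes, and log2 values add 0.5 CPM. Near-identical copies were sought with blastn (95% identity over 150 bases). The script was tested on simulated data. DESeq2 1.42.0, limma 3.58.1 (voom with quality weights), RLE size factors, other filters and quasi-likelihood settings, a replicate block, 1 fit for all libraries and each library left out were tried. Members and lists were chosen with earlier results of these data known. All members are named, with library values or ranges for those called and for the 6 (4 between genotypes) with the smallest p in a comparison, and up to 4 called genes of each other pathway list.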

Additional observations from a re-analysis of the deposited data

Results flagged for a closer look

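In 74 sets of 4 WT-labelled libraries, 1 for each member and tissue, 11 held a library far from the other 3 relative to the range of the set. Chance would give such a gap in about 1 in 20 sets if values were normally distributed and sets independent. The CPM were not log-transformed and the sets share libraries, so the 11 cannot be set against that rate. TIL WT replicate 2 stood apart for Tpi1 (211 CPM, others 75.6 to 82.8), Pgk1 (65.1, others 79.9 to 82.5), Pfkfb3 (55.0, others 12.5 to 15.5) and Vegfa (25.8, others 5.27 to 5.39). Spleen WT replicate 2 stood apart for Pfkfb4 (2.57 CPM, others 0.752 to 0.888) and Adm (0.0780 CPM, others 0). The Adm value is 1 read, so the gap there follows from a single count. Replicate 3 stood apart for Slc16a1 in spleen (58.3 CPM, others 6.86 to 7.96) and in tumor (68.1, others 7.96 to 17.0). The remaining values were Egln3 in Spleen WT replicate 1 (7.17 CPM, others 0.296 to 1.01), Ero1a in Spleen WT replicate 4 (27.4 CPM, others 7.10 to 8.82) and Ankrd37 in TIL WT replicate 4 (9.19 CPM, others 2.90 to 3.32).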

How the results depend on the processing

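Over all 14 libraries, 25 to 27 members were called under the 23 alternatives. The log2 difference of Pfkm, not called, took the other sign with DESeq2 (0.030), voom (0.016), RLE size factors (0.035), the filter of 5 CPM (0.040) and the replicate block (0.043), and ranged from -0.19 to 0.32 with 1 library left out. So did Pfkfb3 (-0.20 to 1.13), Kdm3a (-0.11 to 1.00), Slc16a1 (-0.21 to 1.06) and Bnip3l (-0.51 to 0.041), and between genotype labels in tumor Aldoc (-0.49 to 2.34), Higd1a (-0.11 to 1.53) and Pfkfb3 (-0.30 to 2.46). Family ratios, whose alternatives were added after seeing the data, ranged from -0.85 to 0.23 (Hk1 to Hk2), -0.11 to 0.21 (Pfkl to Pfkp) and -0.20 to 0.57 (Aldoa to Aldoc).

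In WT-labelled libraries, genes called between tissues numbered 1018, against 2430 with DESeq2, 2126 in the fit of all 14, 598 without both WT replicate 2 libraries and 629 to 983 with 1 library left out. In Flox-labelled ones they numbered 1196, against 2910 with DESeq2 and 514 to 1072, and members called were 21, against 4 to 18 (4 without Spleen Flox replicate 1). Between genotype labels, genes called were 3 in tumor (DESeq2 256, voom 1, legacy quasi-likelihood 0, fit of all 14 16, 1 library left out 0 to 5) and 6 in spleen (DESeq2 124, voom 0, no filter 1, legacy 0, 1 left out 1 to 24). The difference between tissues had 0 (DESeq2 134, 1 left out 0 to 5). Members called stayed at 0 in all of these.

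Over all genes, same-numbered libraries did not deviate together (correlations of -0.0301 to 0.0537), and 1 of 14 correlated best with its own number. Single genes did, namely Slc16a1 in both WT replicate 3 libraries, and Y-linked genes and Adgre1 in both WT replicate 2 libraries. Adgre1 lay at 194 CPM in Spleen WT replicate 2 and 143 in TIL WT replicate 2, and at most 4.61 in any other library. The correlations cannot exclude that same-numbered libraries came from the same mouse. The numbers were not used as pairs in the main fits. With the replicate block, 378 genes and 12 members were called in WT-labelled libraries, 448 and 7 in Flox-labelled ones, 26 members over all 14, and 0 genes between genotype labels in tumor and 0 in spleen. For these changes the cause was not tested.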
